A study of Homo sapiens with 4 samples.

Results

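The mitotic kinesins and their partner PRC1 were followed in Huh7 cells, a human hepatocellular carcinoma line, after treatment with a small interfering RNA (siRNA). They are 10 genes, namely KIF11, KIF15, KIF2C, KIF18A, KIF4A, KIF20A, KIF23, KIF20B, KIF14 and PRC1. Each was found in the platform's probe table under its own symbol and passed the filter on low values, out of 19140 genes that did so. The members had 225 of the 352859 probe sets of the array, and 208 of them were bright enough to be used. The study treated the cells with an siRNA against NF90 (siNF90), a binder of double-stranded RNA, or with the siRNA that the labels call siNTC, taken here as the control. Total RNA of 2 siNTC and 2 siNF90 samples was hybridised to 1 Affymetrix array each. The labels give no dose, time after transfection or siRNA sequence, and nothing in them says that the replicates came from separate cultures. The p-values therefore reflect array-to-array spread alone, and that spread could be purely technical.

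Kinesins are motor proteins that use ATP to move along microtubules or to take them apart. The mitotic ones build the bipolar spindle, align the chromosomes at its equator and, after the chromosomes part, organise the overlapping microtubules of the central spindle where the cell divides. PRC1 is not a motor but bundles these antiparallel microtubules and recruits several of the kinesins to them. The messenger RNAs of such genes are known to rise in G2 and mitosis and to be low in cells that do not divide. In a mixed culture the share of cells in mitosis and the amount of messenger RNA per cell cannot be told apart.

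The label Huh7 was set against marker genes. All 10 hepatocyte-type markers were measured, with gene values between 5.68 and 10.9 on the log2 scale, and AFP, the fetal liver protein alpha-fetoprotein, lay between 10.8 and 10.9 on the 4 arrays. The 5 fibroblast markers had means of at most 3.68 and the 3 endothelial markers that passed the filter at most 3.14. Of the leukocyte markers, LYZ, which encodes lysozyme, had a value of 9.03, while PTPRC, the pan-leukocyte marker CD45, lay between 2.85 and 3.80. On the 4 arrays, the mean of the hepatocyte-type markers lay between 9.52 and 9.67, that of the fibroblast markers between 2.98 and 3.40, that of the endothelial markers between 2.90 and 3.28 and that of the leukocyte markers between 4.17 and 5.02. The markers of other cell types also differed between the groups, with 0 past limma's adjusted threshold. The means of all 3 endothelial markers and all 4 leukocyte markers were higher in siNF90, with median differences of 0.32 and 0.25, and 1 marker of each list had groups without overlap. Of the 5 fibroblast markers 3 were higher, with a median of 0.092, and the groups were apart in 1 with siNF90 higher and in 1 with siNF90 lower. Of the 10 hepatocyte-type markers 4 were higher, with a median of -0.088. Their groups were apart in 7, with siNF90 lower in 5 and higher in 2. Over all 19140 genes, 19.2% were apart with siNF90 higher and 22% with siNF90 lower. The part of the markers in the results below was not tested. Over all probe sets, array medians ran from 2.72 to 2.79.

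Of the 10 genes, which were chosen with earlier results of these data known, 9 had a higher mean in siNF90 than in siNTC cells. In 5 of them, PRC1, KIF2C, KIF14, KIF20A and KIF18A, the groups did not overlap and siNF90 was higher, and in 0 of the 10 were they apart with siNF90 lower. Over all 19140 genes, 47.5% had a higher mean in siNF90, 19.2% had both siNF90 arrays above both siNTC arrays and 22% had both below. Among the 3226 genes whose mean level fell between those of the lowest and the highest member, these shares were 49.1%, 25.1% and 24.6%. The median difference of the members, siNF90 minus siNTC, was 0.26 on the log2 scale, against -0.018 over all genes and -0.0065 over genes at member levels. In the limma fit over all genes, 0 of the 10 members passed an adjusted p (Benjamini-Hochberg) of 0.05, as did 0 of all 19140 genes, a share of 0%. At an unadjusted p under 0.05 there was 1 member, PRC1, and it was higher in siNF90. Over all genes 3.51% met that level and were higher, and 5.29% met it and were lower. With limma's trend and robust prior, 0 members and 48 genes (0.251%) passed the adjusted threshold. At an unadjusted p under 0.05 that fit had 4 members, PRC1, KIF2C, KIF20A and KIF14, each higher in siNF90, against 5.01% of all genes. An exact permutation test of 2 arrays against 2 cannot give a two-sided p below 0.333, so no single gene can pass it in this design.

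**Figure D1:**
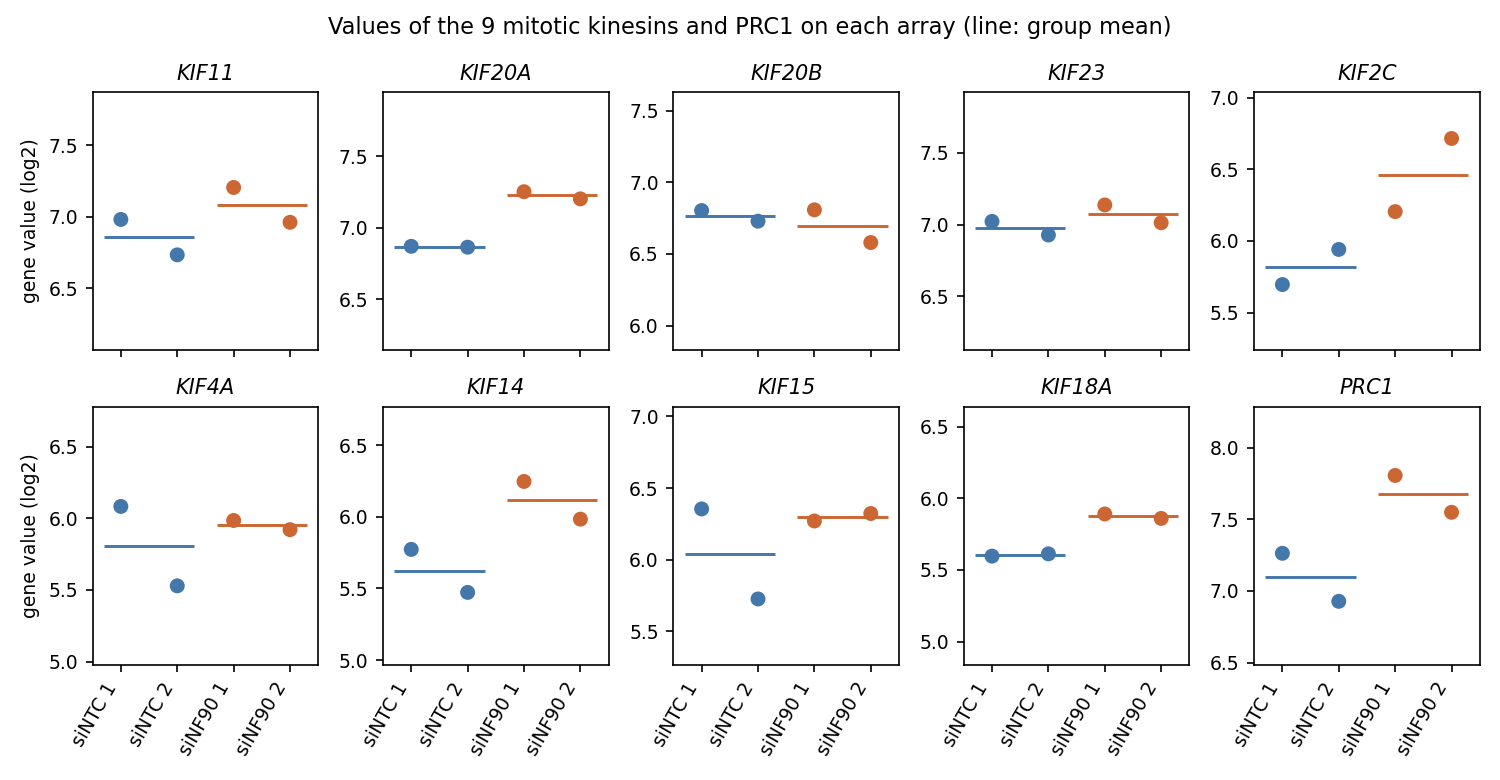
Gene values (log2, mean of the kept probe sets) of the 10 genes on the 2 siNTC (blue) and 2 siNF90 (orange) arrays, with a line at each group mean. Every panel spans the same range in log2 units around the mean of its gene. The groups are apart in KIF20A, KIF2C, KIF14, KIF18A and PRC1 and overlap in the other genes.

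PRC1, the bundler of the central spindle, had the smallest p of the members. Its gene value was 7.26 and 6.93 on the siNTC arrays and 7.81 and 7.55 on the siNF90 arrays. Both siNF90 arrays were higher, and the lower of them exceeded the higher siNTC array by 0.29. The difference was 0.58 (SE 0.22), a fold of 1.50 with a 95% interval from 1.01 to 2.22, and the adjusted p in limma was 0.562. PRC1 was also the member with the most uniform probe sets. All 16 of its probe sets were kept, 15 were higher in siNF90, and 13 had both siNF90 arrays above both siNTC arrays against 0 below. Over all 171120 kept probe sets of the array, 48.4% were higher in siNF90, 18% had both siNF90 arrays above both siNTC arrays and 20.3% had both below. The probe set differences of PRC1 ran from -0.080 to 1.14 with a median of 0.60. Its highest difference was in probe set 16813344, which read 5.34 and 4.95 in siNTC and 6.03 and 6.54 in siNF90. The exception, 16813369, read 3.09 and 2.38 in siNTC and 4.33 and 0.99 in siNF90, so its 2 siNF90 values lay on either side of the controls.

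KIF4A, a chromosome-bound kinesin that PRC1 brings to the central spindle to limit microtubule growth there, had values of 6.08 and 5.53 in siNTC and 5.98 and 5.92 in siNF90. The siNF90 values lay between those of the siNTC arrays. The difference of 0.15 (SE 0.25) had a 95% interval of -0.50 to 0.80 (limma, adjusted p = 0.888). KIF4A was covered by only 8 kept probe sets, with differences from -1.32 to 0.99, of which 6 were higher. With the median of the probe sets on each array as the gene value, its difference was 0.75. The median of its probe set differences was 0.34. KIF4B, a near-identical copy of KIF4A, has 3 probe sets of its own in the table, and whether the KIF4A probe sets also read KIF4B is stated in no source used here.

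Another 3 members, KIF20A, KIF23 and KIF20B, act in cytokinesis. KIF20A, which carries the chromosomal passenger complex to the central spindle, had 6.87 and 6.86 in siNTC and 7.25 and 7.20 in siNF90 cells. These were closely spaced pairs that did not overlap. The difference was 0.36 (SE 0.17), a fold of 1.28 (95% interval 0.94 to 1.75), and limma's adjusted p was 0.617. Of its 18 kept probe sets, 16 were higher and 11 had both siNF90 arrays above both siNTC arrays. The highest, 16989637, read 1.745 and 2.042 in siNTC and 2.042 and 5.021 in siNF90. The closeness of the KIF20A siNF90 pair rests in part on it. All its values but the last lay under 2.13, the cut of the filter on low values. Its mean over the 4 arrays, 2.71, passed that filter. With the filter at the 60th percentile, which removes it, the KIF20A difference was 0.28. KIF23, the motor subunit of the centralspindlin complex, had 7.02 and 6.93 in siNTC and 7.14 and 7.01 in siNF90, where the lower siNF90 array fell just under the higher siNTC array. Its difference was 0.10 (SE 0.18, interval -0.36 to 0.56), with 12 of 20 probe sets higher. The KIF23 difference was 0.039 without the first siNF90 array, 0.053 without the second siNTC array and 0.16 without the second siNF90 array. KIF20B, which acts late in cytokinesis, was the 1 member with a lower mean in siNF90. It had 6.80 and 6.73 in siNTC and 6.81 and 6.58 in siNF90, a difference of -0.072 (SE 0.19, interval -0.56 to 0.42), and the groups overlapped. Its probe sets were divided, 16 higher and 12 lower of 28, and 6 had both siNF90 arrays below both siNTC arrays against 2 above. The lowest, 16707257, read 5.03 and 5.67 in siNTC and 4.74 and 3.65 in siNF90. The 95% intervals of the 3 genes overlap, and whether they differ in response was not tested.

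KIF14, a kinesin that binds PRC1 and citron kinase at the midbody, had 5.77 and 5.47 in siNTC and 6.25 and 5.98 in siNF90 cells. The groups did not overlap, and the gap between the nearest arrays was 0.21. The difference was 0.49 (SE 0.21), a fold of 1.41 (95% interval 0.95 to 2.07), and limma's adjusted p was 0.605. Of 27 kept probe sets 22 were higher, and 14 had both siNF90 arrays above both siNTC arrays against 2 below. In 5 of the 27 the siNF90 mean was higher by more than 1. Probe set 16697708 read 3.43 and 3.32 in siNTC and 5.07 and 5.36 in siNF90. Probe set 16697720 read 3.41 and 3.32 against 5.40 and 4.70, and 16697722 read 3.25 and 2.85 against 4.93 and 4.53. These 3 are dim probe sets in siNTC cells, in which the siNF90 arrays stood well apart. In the opposite direction, 16697725 read 3.81 and 2.97 in siNTC and 1.87 and 1.52 in siNF90. Both siNF90 values of 16697725 lay under 2.13, the cut of the filter on low values. Its mean over the 4 arrays, 2.54, passed that filter. The 21 probe sets that differed by at most 1 in either direction had a mean difference of 0.36.

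KIF14 was the 1 member whose probe sets changed unequally in limma's diffSplice test (Simes method), with a false discovery rate of 0.017. Over all 16175 genes with at least 2 kept probe sets, 446 genes or 2.76% passed. The call rested on 1 probe set, 16697725, whose difference lay 2.27 below that of the rest of the gene. Without it the false discovery rate was 0.489, and 0.486 when probe sets under the 60th percentile of all were dropped, which removes it. The call was also lost without the first siNTC array (0.120), the first siNF90 array (0.213) or the second siNF90 array (0.439). In the other 9 members the false discovery rate was between 0.580 and 0.989.

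**Figure D2:**
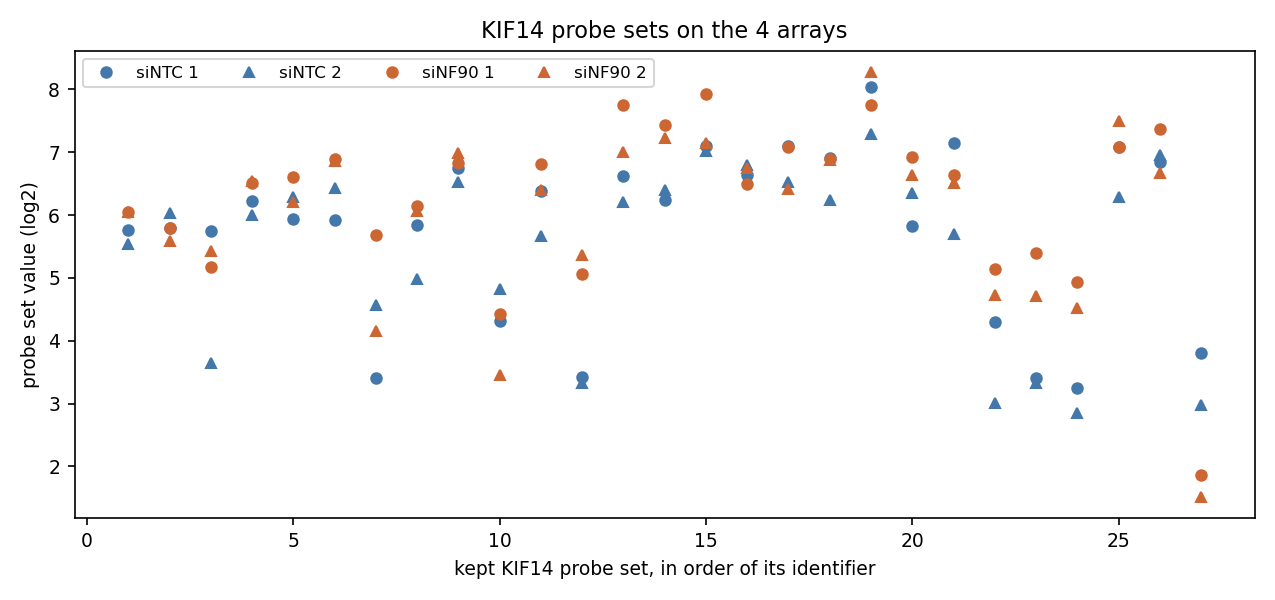
Values (log2) of the 27 kept KIF14 probe sets on the 2 siNTC (blue) and 2 siNF90 (orange) arrays, in order of identifier, with circles for the first and triangles for the second array of each group. In most probe sets the siNF90 points lie higher, while in the last one they lie lower, at 1.87 and 1.52 against 3.81 and 2.97.

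Among the kinesins that act on chromosomes and kinetochores, KIF2C had the largest difference of all members. KIF2C, also called MCAK, takes microtubules apart and helps to correct faulty kinetochore attachments. It had 5.70 and 5.94 in siNTC and 6.21 and 6.71 in siNF90 cells, and both siNF90 arrays were higher, the second by more. The difference was 0.64 (SE 0.25), a fold of 1.56 (95% interval 0.99 to 2.46), and limma's adjusted p was 0.570. With the median of the probe sets in place of their mean the difference was 0.33, and without the second siNF90 array it was 0.39. Of 21 kept probe sets 19 were higher, and 8 had both siNF90 arrays above both siNTC arrays against 1 below. The 1 below, the bright probe set 16663988, read 8.64 and 8.24 in siNTC and 8.12 and 7.82 in siNF90. The highest difference was in 16663961, with 1.91 and 2.29 in siNTC and 4.64 and 4.43 in siNF90. Its first siNTC value lay under 2.13, the cut of the filter on low values. The filter used the mean over the 4 arrays, here 3.32, so the brighter siNF90 values helped to keep it. With the filter at the 60th percentile, which removes it, the KIF2C difference was 0.52, below the 0.63 of PRC1. Without the filter the KIF2C difference was 0.59, against 0.58 in PRC1. Probe set 16663987 read 2.36 and 3.28 in siNTC but 0.95 and 7.52 in siNF90, so its difference of 1.41 came from the second siNF90 array alone. The bright probe set 16663965 read 9.72 and 9.08 in siNTC and 9.85 and 9.94 in siNF90, a difference of 0.49.

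KIF18A, which shortens kinetochore microtubules at their tips and damps the swings of the chromosomes, showed the tightest replicates beside KIF20A. It had 5.60 and 5.61 in siNTC and 5.89 and 5.86 in siNF90 cells. The groups did not overlap. The difference was 0.27 (SE 0.17), a fold of 1.21 (95% interval 0.89 to 1.64), and limma's adjusted p was 0.687. The SE is larger than the spread of these pairs because limma draws each gene's variance towards that of all genes. Of 21 kept probe sets 16 were higher, with differences from -0.67 to 1.50. In 6 both siNF90 arrays were above both siNTC arrays, and in 2 both were below. The highest, 16736912, read 2.69 and 3.38 in siNTC and 4.54 on both siNF90 arrays. Probe set 16736892 read 1.83 and 4.56 on the siNF90 arrays, and the closeness of the KIF18A siNF90 pair rests in part on it.

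The 2 motors that keep the spindle poles apart did not separate the groups. KIF11, which slides antiparallel microtubules outward, had 6.98 and 6.73 in siNTC and 7.20 and 6.96 in siNF90, where the second siNF90 array lay 0.021 below the first siNTC array. Its difference was 0.22 (SE 0.20). Its 95% interval ran from -0.31 to 0.76 and limma's adjusted p was 0.778. With single arrays left out the KIF11 difference was between 0.10 (without the second siNTC array, and likewise without the first siNF90 array) and 0.35 (without the first siNTC array, and likewise without the second siNF90 array). Of its 21 kept probe sets 16 were higher, and 10 had both siNF90 arrays above both siNTC arrays against 0 below. KIF15, a motor that can maintain a bipolar spindle when KIF11 is impaired, had 6.35 and 5.73 in siNTC and 6.27 and 6.32 in siNF90. The second siNTC array alone was low. The KIF15 difference of 0.26 (SE 0.27) turned to -0.058 without that array, and of its 28 kept probe sets 19 were higher.

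**Figure D3:**
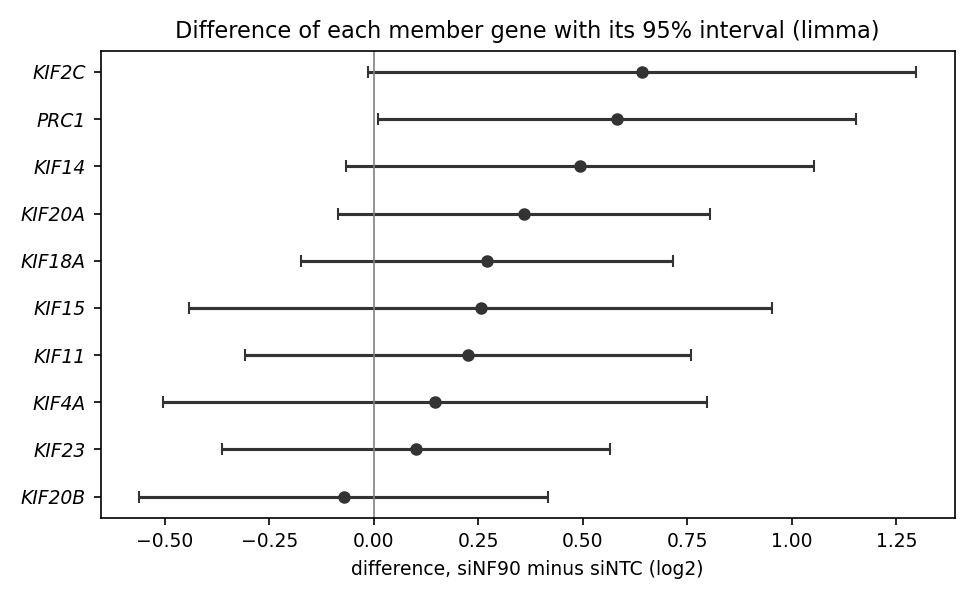
Difference between siNF90 and siNTC (log2, horizontal axis) of each of the 10 genes, with the 95% interval of the limma fit. The points run from -0.072 in KIF20B to 0.64 in KIF2C, and of the 10 intervals, which are not adjusted for the number of genes, that of PRC1 alone lies above 0.

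Across the 208 kept probe sets of the 10 genes, 157 were higher and 51 lower in siNF90. The groups were apart with siNF90 higher in 80 and with siNF90 lower in 15. Over all 171120 kept probe sets of the array, 48.4% were higher in siNF90. There, 18% were apart with siNF90 higher and 20.3% with siNF90 lower. Probe sets of a gene share its RNA and are not replicates. In a limma test of single probe sets, 11 of the 208 had an unadjusted p under 0.05. This is a smaller share than the 7.38% of all kept probe sets. After adjustment over all 171120, 0 of the 208 passed, as did 0% of the array. Of the 11, 10 were higher in siNF90 and KIF14's 16697725 was lower.

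**Figure D4:**
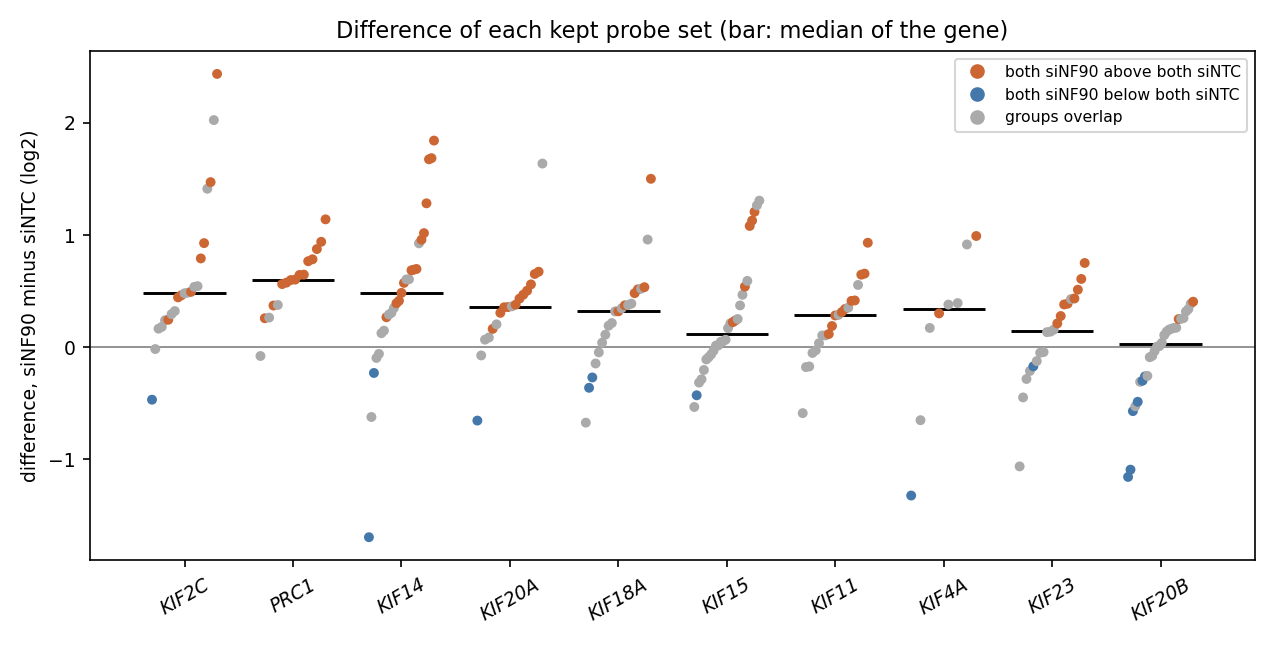
Difference between siNF90 and siNTC (log2, vertical axis) of each of the 208 kept probe sets by gene, sorted within a gene, with a bar at the median. Orange points have both siNF90 arrays above both siNTC arrays, blue points have both below and grey points overlap. The medians run from 0.023 in KIF20B to 0.60 in PRC1.

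The arrays of a group also differed from each other. The mean of the 10 genes was 6.44 and 6.25 on the siNTC arrays and 6.68 and 6.61 on the siNF90 arrays. In this mean the difference between the groups was 0.30, while the second siNTC array lay 0.20 below the first. The median of the 10 genes was 6.579 and 6.335 in siNTC and 6.539 and 6.648 in siNF90, so by the median the groups overlapped. In 8 of the 10 members the second siNTC array was below the first, as in 53.5% of all genes. The second siNF90 array was below the first in 8 members too, and in 61% of all genes. Without the second siNTC array 7 of 10 members were higher in siNF90 and the median difference was 0.19. Without the first siNTC array the median was 0.39. The part of the spread between the siNTC arrays in the results was not tested.

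The promoters of the 10 genes were read in RefSeq windows (build GRCh38.p14) from 250 bases before to 50 bases from the start site on, and all 10 matched by symbol. Each was searched on both strands for 3 kinds of motif. TTTGAA is a form of the cell cycle homology region. Through this region genes of G2 and mitosis are known to be held back outside these phases. Other forms of the region were not searched. CCAAT is the box bound by NF-Y. E2F sites were searched as TTGGCGC and in 3 other spellings. These were TTCCCGC, then the spelling TTCGCGC, and last of all TTGCCGC. The motif TTTGAA occurred in 8 of the 10 windows and in 15.2% of all 35116 windows of the table. CCAAT occurred in 8 of the 10 and in 34.6% of all, and an E2F form in 2 of the 10, KIF15 and KIF18A, and in 13% of all. Both TTTGAA and CCAAT were present in 7 of the 10 members and in 5.9% of all windows. Several genes of the table have more than 1 window. The windows below are those of the 5 genes whose groups did not overlap and of KIF20B, the member with a lower mean in siNF90. Each runs from 140 bases before the start site to its first 40 bases, 180 bases in all. It is given 5′ to 3′ on the strand of the gene, with the searched motifs in capitals. On the other strand CCAAT reads ATTGG and TTTGAA reads TTCAAA.
PRC1, chr15:90994496-90994675, minus strand: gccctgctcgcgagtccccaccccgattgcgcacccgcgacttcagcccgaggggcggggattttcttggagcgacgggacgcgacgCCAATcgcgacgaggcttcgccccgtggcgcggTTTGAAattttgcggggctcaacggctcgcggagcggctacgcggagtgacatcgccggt
KIF14, chr1:200620712-200620891, minus strand: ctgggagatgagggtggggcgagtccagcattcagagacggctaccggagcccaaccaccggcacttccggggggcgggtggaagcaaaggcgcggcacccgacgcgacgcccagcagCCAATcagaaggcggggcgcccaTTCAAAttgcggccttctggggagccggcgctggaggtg
KIF18A, chr11:28108117-28108296, minus strand: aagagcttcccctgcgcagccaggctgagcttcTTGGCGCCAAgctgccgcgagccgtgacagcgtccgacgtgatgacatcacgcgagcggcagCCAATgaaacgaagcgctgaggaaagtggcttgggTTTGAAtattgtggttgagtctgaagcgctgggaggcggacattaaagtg
KIF20A, chr5:138178972-138179151, plus strand: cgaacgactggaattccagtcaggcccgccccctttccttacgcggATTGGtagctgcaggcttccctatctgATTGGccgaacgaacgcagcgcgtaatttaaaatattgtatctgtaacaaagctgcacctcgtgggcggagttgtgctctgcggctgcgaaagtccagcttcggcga
KIF2C, chr1:44739697-44739876, plus strand: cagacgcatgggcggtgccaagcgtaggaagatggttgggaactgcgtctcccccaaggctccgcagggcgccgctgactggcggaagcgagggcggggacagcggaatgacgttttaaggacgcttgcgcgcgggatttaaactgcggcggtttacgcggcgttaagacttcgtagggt
KIF20B, chr10:89701450-89701629, plus strand: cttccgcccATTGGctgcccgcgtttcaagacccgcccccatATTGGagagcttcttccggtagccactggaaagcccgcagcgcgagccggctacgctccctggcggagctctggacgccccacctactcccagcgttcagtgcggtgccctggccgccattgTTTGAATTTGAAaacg

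In PRC1, KIF14 and KIF18A the CCAAT box preceded TTTGAA by 33, 23 and 35 bases between their first bases. The same pair stood 25 bases apart in KIF11, 24 in KIF4A and 9 in KIF23, whose windows are not printed. The E2F form of KIF18A is found on both strands within 1 overlapping stretch. KIF20B held TTTGAA as 2 copies after its start site, 122 bases from the nearer CCAAT box. KIF20A had 2 CCAAT boxes and no TTTGAA, and KIF2C had none of the searched motifs in its window. Other forms of the cell cycle homology region were not searched, so its absence from these windows is not shown. The differences of KIF20A and KIF2C on the arrays were 0.36 and 0.64. The part of the motifs in these differences was not tested. The pair of motifs occurred in other lists as well. Of the genes with a window in the lists described below for the pathway and the cell cycle, 6 of 9 markers of G2 and mitosis held both TTTGAA and CCAAT (66.7%), as did 8 of 14 spindle microtubule proteins (57.1%) and 6 of 12 genes of the central spindle and cytokinesis (50%). Both were held by 2 of 7 other mitotic kinesins (28.6%) and 1 of 17 transport, ciliary and other kinesins, and by 0 of 10 markers of G1/S and S phase and 0 of 3 light chains and adaptors. These are matches of letters and not measured binding sites.

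The other genes of the pathway were taken from 7 lists, chosen with earlier results of these data known. In each list 0 members passed an adjusted p of 0.05 in limma. Of 12 tested genes of the central spindle and cytokinesis, 10 had a higher mean in siNF90, 7 of them without overlap, and the median difference was 0.24. The share of all 19140 genes without overlap and higher, given above, was 19.2%, or 25.1% at member levels, and the counts of the lists are to be read against it. ANLN, the scaffold anillin of the contractile ring, had 7.25 and 7.10 in siNTC and 7.65 and 7.51 in siNF90. PLK1, the mitotic kinase that docks on PRC1, had 7.78 and 7.74 against 8.12 and 8.21. In both genes the groups did not overlap. RACGAP1 and CIT were not analysed here. Of 15 spindle microtubule proteins, 12 were higher, 4 without overlap, with a median of 0.10. Without the second siNTC array 8 of the 15 were higher and the median was 0.0081, and without the first 14 were higher and the median was 0.22. SPAG5 (astrin), which acts on kinetochore fibres, had a difference of 0.46 (SE 0.22), and TACC3, a component of these fibres, had 0.39 (SE 0.19).

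The rest of the kinesin family had no common direction. Of 7 other kinesins with roles reported in mitosis, 5 were higher and 2 lower, with 2 without overlap in each direction. The median of these 7 was 0.14, or 0.084 without the second siNTC array. Those with the smallest p were the lower ones, KIF3B, a subunit of the motor of ciliary transport, at -0.66 (SE 0.18), and KIF24, which restrains cilium formation, at -0.73 (SE 0.25). KIF24 lay at 3.56 and 3.04 in siNTC and 2.45 and 2.69 in siNF90. Of 25 transport, ciliary and other kinesins, 11 were higher and 14 lower, with a median of -0.0049, and 6 had groups without overlap in each direction. The median was -0.14 without the first siNF90 array. KIF3A, the partner of KIF3B, had 3.78 and 3.71 in siNTC and 4.54 and 4.67 in siNF90. KIF5C, a heavy chain of conventional kinesin, had 3.56 and 4.51 against 2.70 and 2.45. Both pairs of groups were apart, in opposite directions. Among the 5 light chains and adaptors, 2 were higher, with KLC2 at 0.54 (SE 0.18) and KIFAP3, which joins the KIF3A and KIF3B motor to cargo, at -0.34 (SE 0.19). In limma the adjusted p of these 6 genes was between 0.514 and 0.669. 

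Markers of the cell cycle phases were set beside the members. Of 11 markers of G2 and mitosis, 10 had a higher mean in siNF90, 8 of them without overlap (19.2% over all genes), with a median difference of 0.35. Without the second siNTC array 8 of the 11 were higher, with a median of 0.23. CENPF, a kinetochore protein of G2 and mitosis, had 5.85 and 5.44 in siNTC and 6.19 and 6.40 in siNF90. CCNB2, cyclin B2, had 6.05 and 5.63 against 6.42 and 6.46. Of 13 markers of G1/S and S phase, 3 were higher and 10 lower, with a median of -0.11, and 3 of the lower ones had groups without overlap (22% over all genes). CDC6, which loads the replicative helicase, had 6.00 and 5.74 in siNTC and 5.21 and 5.56 in siNF90, and MCM5, a helicase subunit, had 6.99 and 6.81 against 6.41 and 6.56. Without the first siNTC array the G1/S median was 0.061, with 7 of 13 higher, and without the second it was -0.29, with 3 higher. Without the first array the median of G2 and mitosis was 0.41. The part of cell cycle phase in the results for the 10 members was not tested.

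**Figure D5:**
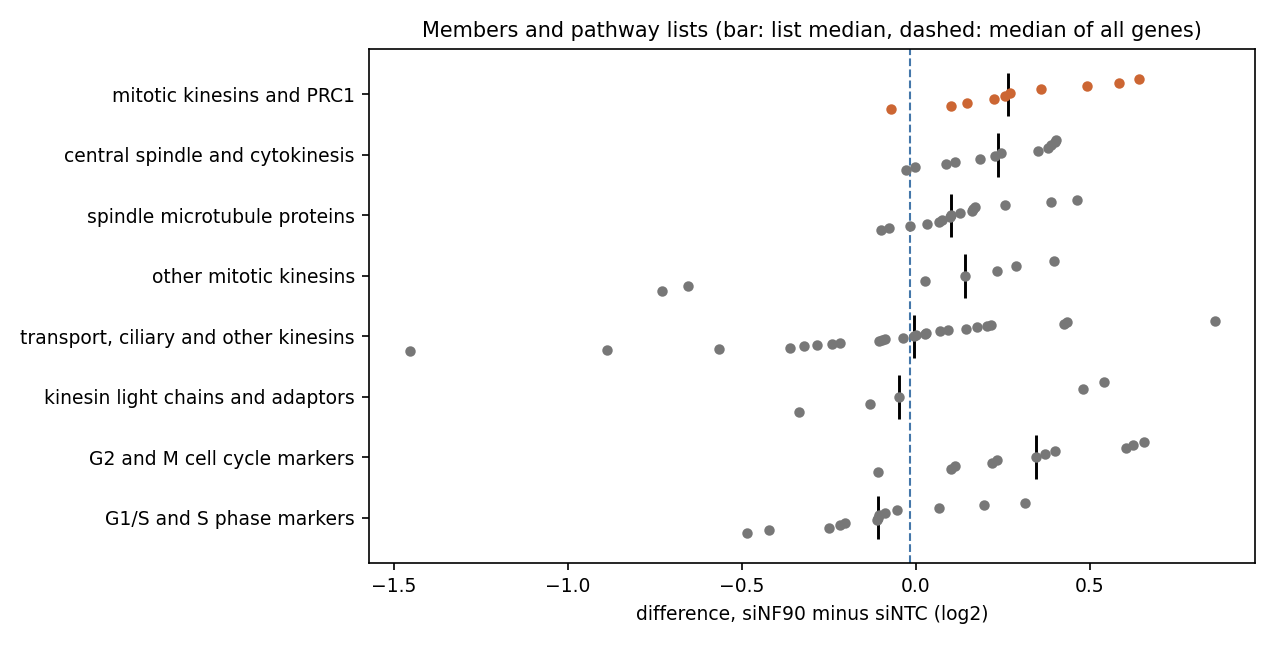
Difference between siNF90 and siNTC (log2, horizontal axis) of each gene of the 10 members (orange) and of the 7 lists (grey), with a bar at each median and a dashed line at the median of all genes, -0.018. The members' median is 0.26, that of the G2 and M markers 0.35, and that of the G1/S and S phase markers -0.11.

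The 5 other genes whose pattern over the 4 arrays was most like the mean of the 10 members were CCT2, GINM1, ZC3H12D, ARNTL2 and SCP2. Likeness was the Euclidean distance between the 4 array values, each gene centred on its own mean, among 14431 genes with at least 3 kept probe sets. The members' mean profile was -0.051 and -0.25 in siNTC and 0.19 and 0.12 in siNF90. CCT2 came closest, at -0.053 and -0.26 in siNTC and 0.20 and 0.11 in siNF90, a distance of 0.018. The distance of the other 4 was at most 0.025. The match over 4 arrays is a description only.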

How the data were processed

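The deposited log2 values were used as they are and, per the labels, come from RMA-sketch in Affymetrix Expression Console. The log base was taken from the method and the range of the values. RMA corrects background, normalises quantiles and summarises probes per probe set. No source used here states the program's version or a genome build. Per the platform's probe table, 257971 of 352859 probe sets had 1 gene symbol, 17460 had several and 77428 were unnamed. Only those with 1 symbol were used.

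Probe sets with a mean over 4 arrays below the 40th percentile of all (2.13) were left out, which kept 171120 in 19140 genes. A gene value is the mean of its kept probe sets. Genes were tested with limma 3.58.1 in R 4.3.3 (lmFit, eBayes, two-sided, Benjamini-Hochberg over all genes at 0.05), single probe sets likewise, and unequal probe sets with diffSplice. The scripts were tested on simulated data. SE and 95% intervals are those of limma. The number of arrays, 2 per group, limits the precision.

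Named genes are the 10 members, the 2 genes of each list with the smallest p, and the 5 most alike in pattern. AFP, LYZ, PTPRC and KIF4B fall outside this rule and were named after their values were seen. Single probe sets were picked with their values in view. The members and lists were chosen with earlier results of these data known. The alternatives changed the dim filter, probe set summary, normalisation, variance prior, replicate block and arrays. The level of NF90's own gene is not reported, and the siRNA's effect on it was not checked. Protein sequences were not used here.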

Additional observations from a re-analysis of the deposited data

How the results depend on the processing

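Over 13 alternatives, of which removal of a level trend was chosen after seeing the data, 0 of the 10 members passed the threshold in each. The smallest adjusted p among the members lay between 0.195 (trend and robust prior, PRC1) and 0.842 (without the second siNTC array). Over all genes limma called 0 in the main setting, with 1683 at an unadjusted p under 0.05. It called 4 without the dim filter, 48 with the trend and robust prior, and 0 whichever array was left out. The number of members higher in siNF90 was 9 in every setting other than the omission of single arrays, where it ranged from 7 to 10. The members' median then ranged from 0.19 to 0.39. When single arrays were left out, the difference ranged from -0.19 to 0.042 in KIF20B, from -0.13 to 0.42 in KIF4A and from -0.058 to 0.57 in KIF15, so these changed sign. The sign turned without the second siNF90 array in KIF20B and without the second siNTC array in KIF4A and KIF15. The other 7 members kept their direction in all 13. The medians of the light chains and adaptors (0.069 without the second siNTC array, 0.018 without the dim filter and 0.078 by the median of probe sets), of the transport kinesins (0.0081 without the second siNF90 array and 0.0086 with array medians centred) and of the G1/S markers (0.061 without the first siNTC array) turned positive. The false discovery rate for unequal probe sets of KIF14, tested under alternatives chosen after seeing the data, was 0.486 with the filter at the 60th percentile, 0.489 without its lowest probe set, and between 0.030 and 0.439 with single arrays left out. In the first 2 cases the lowest probe set is absent by construction. For the lost calls with arrays left out the cause was not tested. With the replicate number as a block, 0 genes and 0 members passed, the members' median difference stayed 0.26 and the adjusted p of PRC1 was 0.614. The deviations of same-numbered arrays correlated at -0.0118 over all genes, which does not show whether the members were paired. Among the members, the second array minus the first had the same sign in both groups except in KIF15 and KIF18A. It was -0.25 in siNTC and -0.24 in siNF90 for KIF11, and 0.24 and 0.51 for KIF2C. For KIF15 it was -0.63 and 0.052, and for KIF18A 0.016 and -0.031. Pairing of the members was not tested. Under the block the false discovery rate of KIF14's unequal probe sets, also an alternative chosen after seeing the data, was 0.0844, past the threshold no longer, with 287 genes called against 446. The block changed no other call on the members.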
